A study of Homo sapiens with 12 samples.

Results

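VCAM1, ICAM1, PTX3, TSLP, TNFRSF11B and CYTL1 are 6 genes of leukocyte adhesion and secreted inflammatory signalling, chosen by name from an expression study of IMR-90 cells, a line of human lung fibroblasts that divides a limited number of times in culture. Their members were the probe sets that name only that gene, 9 of the 54675 on the array: 3 for ICAM1, 2 for TNFRSF11B and 1 for each of the other genes. All 6 genes were measured, among 19775 genes in all, and none of their probe sets names a second gene. The genes had been picked because earlier results of these same arrays showed them lower at 3% oxygen, so differences between the oxygen levels are given here as descriptions, with no test.

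RNA was hybridised to 12 Affymetrix arrays in 4 groups of 3. At 3% oxygen there were old cells that had not become senescent, at population doubling 53, and young cells at doubling 30. At 20% oxygen there were senescent cells, at doubling 48, and young cells, also at doubling 30. All were IMR-90 cells from 1 supplier in serum-containing medium, harvested before they filled the flask, and the labels give no treatment other than the oxygen level. The 2 oxygen levels had separate incubators, so oxygen and incubator cannot be told apart, and the late groups differ in growth state and population doubling as well as oxygen. The titles call the replicates biological but do not name separate cultures, so the spread between them may be technical.

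VCAM1 and ICAM1 are surface proteins of the immunoglobulin superfamily to which integrins on leukocytes bind: VCAM1 is bound by ITGA4 with ITGB1, and ICAM1 by ITGAL with ITGB2. PTX3 is a secreted long pentraxin that recognises microbes and binds complement C1q, TSLP is a cytokine of epithelial and stromal cells that acts through the receptor chains CRLF2 and IL7R, and TNFRSF11B (osteoprotegerin) is a secreted decoy receptor for TNFSF11 (RANKL) and TNFSF10 (TRAIL). CYTL1 is a small secreted cytokine-like protein first found in CD34+ blood-forming cells. In fibroblasts and endothelial cells, VCAM1, ICAM1 and PTX3 are textbook responses to TNF and interleukin-1, which act on their promoters through the transcription factor NF-κB.

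The bases before the start sites are shown because VCAM1, ICAM1 and PTX3 are known NF-κB targets. Each window holds the 250 bases before a RefSeq start site in GRCh38.p14, 5′ to 3′ on the strand of the gene, and capitals mark matches on either strand to the NF-κB consensus or to the looser pattern GGNNTTNCC, which overlaps it and was chosen with these windows in view.
VCAM1, chr1:100719492-100719741, plus strand: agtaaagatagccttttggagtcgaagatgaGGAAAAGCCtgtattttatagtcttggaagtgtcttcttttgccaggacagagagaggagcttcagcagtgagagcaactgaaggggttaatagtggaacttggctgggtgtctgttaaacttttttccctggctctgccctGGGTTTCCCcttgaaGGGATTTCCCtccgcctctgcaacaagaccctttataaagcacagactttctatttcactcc
ICAM1, chr19:10270870-10271119, plus strand: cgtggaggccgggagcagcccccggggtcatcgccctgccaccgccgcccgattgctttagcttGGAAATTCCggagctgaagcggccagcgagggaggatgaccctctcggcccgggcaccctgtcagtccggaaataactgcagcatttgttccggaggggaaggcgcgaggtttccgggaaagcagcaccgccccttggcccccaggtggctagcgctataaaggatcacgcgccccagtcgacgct
PTX3, chr3:157436600-157436849, plus strand: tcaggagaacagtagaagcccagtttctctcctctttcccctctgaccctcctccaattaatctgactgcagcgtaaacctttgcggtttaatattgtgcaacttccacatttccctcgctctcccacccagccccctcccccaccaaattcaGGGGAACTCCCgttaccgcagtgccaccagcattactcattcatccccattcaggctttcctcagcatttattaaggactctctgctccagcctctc
TSLP, chr5:111071463-111071712, plus strand: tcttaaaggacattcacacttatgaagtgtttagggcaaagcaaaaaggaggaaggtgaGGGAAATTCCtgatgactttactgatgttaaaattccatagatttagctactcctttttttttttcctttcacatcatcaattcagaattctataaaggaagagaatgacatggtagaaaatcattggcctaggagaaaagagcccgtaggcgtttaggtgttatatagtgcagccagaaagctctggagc
CYTL1, chr4:5019459-5019708, minus strand: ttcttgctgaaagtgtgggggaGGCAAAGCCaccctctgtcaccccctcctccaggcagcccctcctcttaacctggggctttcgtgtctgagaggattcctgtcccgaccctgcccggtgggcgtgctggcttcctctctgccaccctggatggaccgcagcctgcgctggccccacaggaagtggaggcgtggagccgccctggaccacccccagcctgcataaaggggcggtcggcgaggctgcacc
These 5 genes were searched. TNFRSF11B, whose arrays at 3% oxygen all lay below those at 20%, was left out of the search by hand, so no motif count given here covers it. The NF-κB consensus matched in the windows of VCAM1, PTX3 and this start of TSLP. VCAM1 has the match GGGATTTCCC at 62 to 53 bases before its start, with the looser match GGGTTTCCC just before it at 77 to 69 bases. ICAM1 (GGAAATTCC) and CYTL1 (GGCAAAGCC) held the looser pattern alone. RefSeq gives 3 starts for TSLP, and the other two windows held neither pattern. Over all 35116 such windows, 5.21% held the NF-κB consensus and 15% the looser pattern. Because the looser pattern was picked with these windows in view, its matches here cannot be read against that share. Of the hypoxia-inducible factor core, only the form ACGTG was searched. This form and the AP-1 pattern TGANTCA were each found in 0 of the 7 windows of these 5 genes. Of all windows, 18.5% held ACGTG and 6.57% TGANTCA. The form GCGTG was not searched, and it can be read in the CYTL1 window and on the other strand of the ICAM1 window. The 0 for ACGTG therefore does not show that these windows lack the core. A match is only a run of letters, and no binding was measured here.

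Every level below is a log2 signal set against the probe set's own median across the arrays, then averaged over the probe sets of a gene. A level of 1 is thus a doubling over that median. Differences between groups have a meaning on this scale, but levels of separate genes cannot be compared, nor set against background. The log base is not stated in the sources used here and is taken as log2 from the use of RMA. Values after ± are SDs for group means and standard errors for differences, with n = 3 arrays per group, and that number of arrays limits the precision. Because the signal comes from whole cultures, fewer cells expressing a gene and less RNA per cell cannot be told apart. The 3′ minus 5′ signal of the ACTB control probe sets, a measure of RNA integrity, varied within both oxygen levels: it ran from -0.22 to 0.02 in old cells at 3%, from -0.18 to 0.71 in young cells at 3%, from 0.02 to 0.35 in senescent cells and from -0.19 to 0.25 in young cells at 20%. The highest of these was replicate 2 of the young cells at 3% oxygen. Since the values are centred, the presence or absence of fibroblast or other markers could not be checked, and only their differences are given further on.

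For VCAM1, PTX3, TSLP, TNFRSF11B and CYTL1, all 6 arrays at 3% oxygen lay below all 6 arrays at 20%, and ICAM1 was the exception. Of all genes, 2.54% had their 3% arrays below their 20% arrays without overlap. The gap between the highest array at 3% and the lowest at 20% was 1.85 for VCAM1, 1.18 for TNFRSF11B, 1.12 for TSLP, 1.07 for PTX3 and 0.87 for CYTL1. Within these 5 genes the order of the groups was not the same: young cells at 20% oxygen stood highest and senescent cells second in each of them, while the order at 3% differed.

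**Figure D1:**
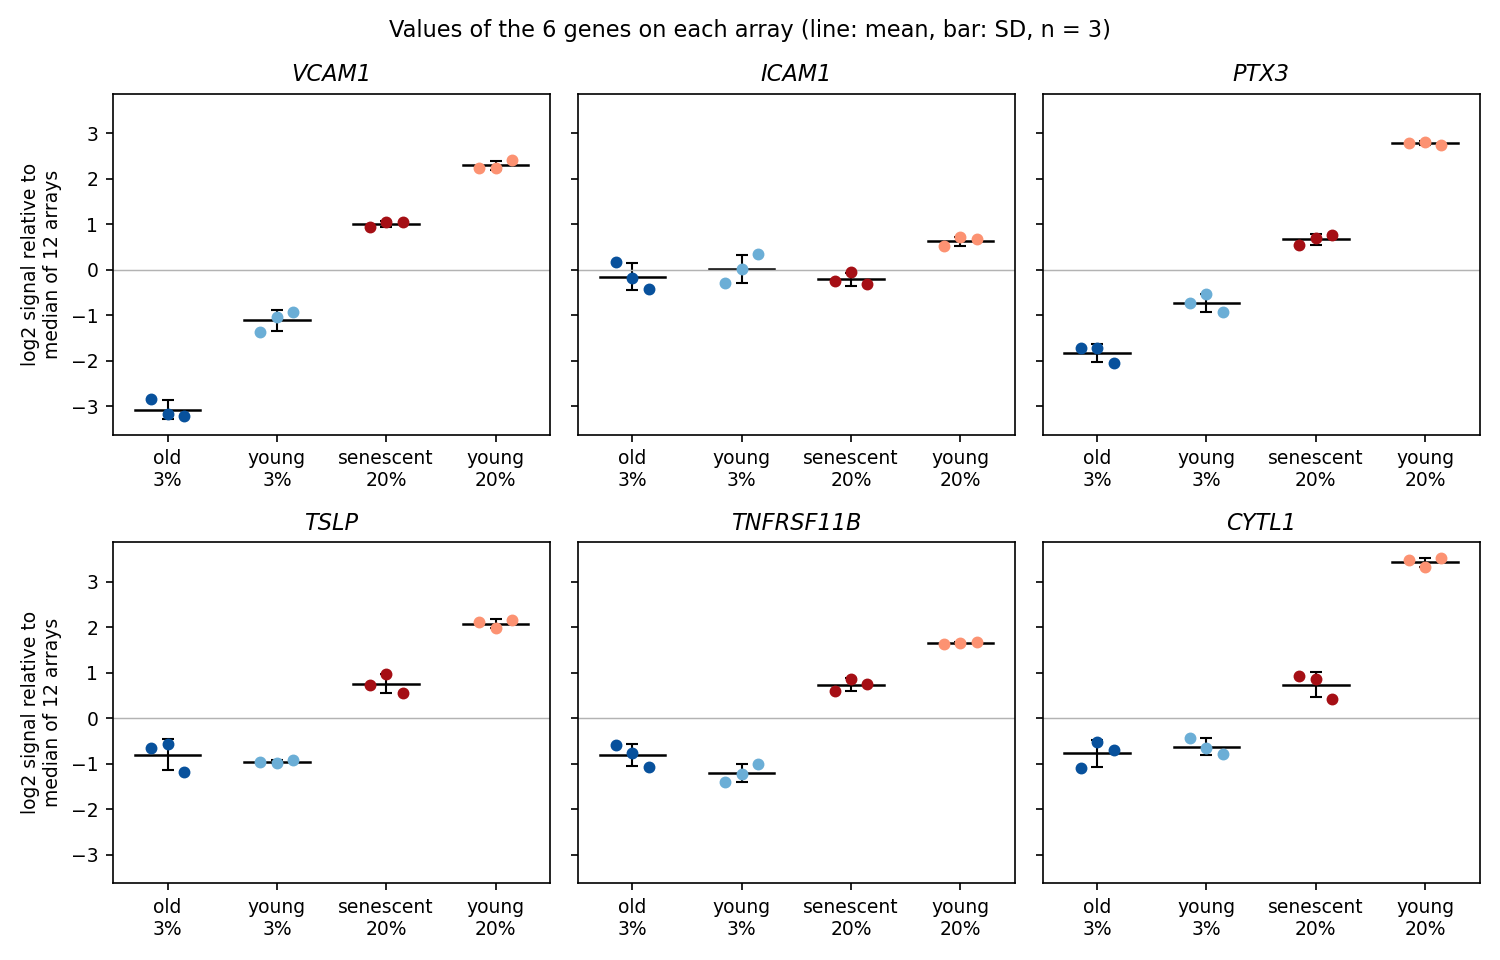
Values of the 6 genes on each array, as log2 signal relative to the median of the 12 arrays, with 3 points per group, the group mean as a line and the SD as a bar. VCAM1 and PTX3 step down through all 4 groups, TSLP, TNFRSF11B and CYTL1 overlap between the groups at 3%, and ICAM1 is raised in young cells at 20% oxygen.

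VCAM1 had the widest spread of the 6 genes, with an SD of 2.14 over the 12 arrays. It stood at -2.83, -3.16 and -3.21 in old cells at 3% oxygen, at -1.37, -1.03 and -0.93 in young cells at 3%, at 0.93, 1.06 and 1.04 in senescent cells at 20%, and at 2.23, 2.23 and 2.41 in young cells at 20%. No group overlapped its neighbour. Young cells at 3% oxygen were 10.5-fold lower than young cells at 20% (-3.40 ± 0.13), the third lowest difference of the 19775 genes. Old cells at 3% were 16.9-fold lower than senescent cells (-4.08 ± 0.13), the lowest of all genes in that comparison.

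ICAM1, the other adhesion molecule, did not share this pattern. It stood at 0.16, -0.18 and -0.42 in old cells at 3% oxygen, at -0.29, 0.01 and 0.34 in young cells at 3%, at -0.25, -0.05 and -0.32 in senescent cells and at 0.52, 0.72 and 0.67 in young cells at 20%. Young cells at 20% oxygen were the high group and the other groups overlapped one another. Young cells at 3% were 1.53-fold lower than young cells at 20% (-0.61 ± 0.17), rank 717 from the lowest of 19775 genes. Between old cells at 3% and senescent cells the difference was 0.06 ± 0.17 (95% interval -0.31 to 0.42), so in late cultures the description of ICAM1 as lower at 3% oxygen does not hold.

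The 3 ICAM1 probe sets did not show the same size of difference. For young cells at 3% against 20% oxygen, 202638_s_at gave -0.88 ± 0.19, 202637_s_at -0.71 ± 0.27 and 215485_s_at -0.24 ± 0.24. Between old cells at 3% and senescent cells 202638_s_at gave 0.39 ± 0.19, while 202637_s_at gave -0.14 ± 0.27 and 215485_s_at -0.07 ± 0.24. On 215485_s_at all 4 groups overlapped, from -0.09 to 0.36 in old cells at 3%, -0.19 to 0.32 in young cells at 3%, -0.08 to 0.54 in senescent cells and 0.00 to 0.81 in young cells at 20%. The gene mean therefore blends a responsive and a flat probe set. For TNFRSF11B the 2 probe sets gave -2.92 ± 0.12 and -2.80 ± 0.22 in young cells, and -1.77 ± 0.12 and -1.32 ± 0.22 when old cells at 3% were set against senescent cells, the same direction on both.

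**Figure D2:**
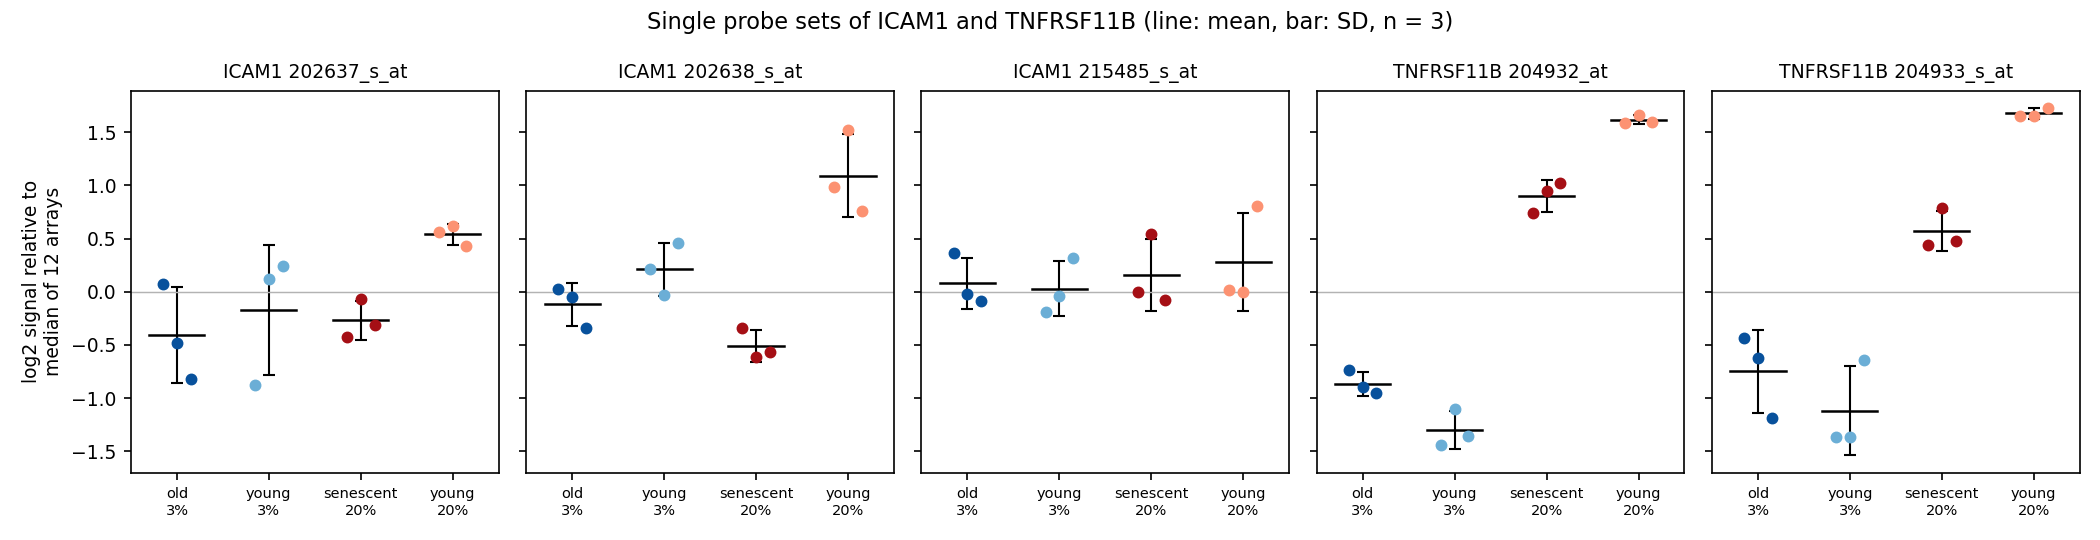
Log2 signal of the 3 ICAM1 probe sets and the 2 TNFRSF11B probe sets relative to the median of the 12 arrays, with 3 points per group, the mean as a line and the SD as a bar. The TNFRSF11B probe sets separate 3% from 20% oxygen, and of those for ICAM1 202638_s_at has its highest mean in young cells at 20% (1.09) while 215485_s_at overlaps in all groups.

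Among the secreted genes, PTX3 came closest to VCAM1 in shape. It stood at -1.72, -1.71 and -2.05 in old cells at 3% oxygen, at -0.73, -0.54 and -0.93 in young cells at 3%, at 0.54, 0.70 and 0.77 in senescent cells and at 2.79, 2.81 and 2.74 in young cells at 20%. Again no group overlapped its neighbour. PTX3 was 11.4-fold lower in young cells at 3% than in young cells at 20% (-3.51 ± 0.12), the second lowest of all genes. It was 5.65-fold lower in old cells at 3% than in senescent cells (-2.50 ± 0.12).

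CYTL1 held the lowest difference of all genes in young cells. It stood at -1.09, -0.51 and -0.70 in old cells at 3% oxygen, at -0.43, -0.65 and -0.78 in young cells at 3%, at 0.93, 0.86 and 0.43 in senescent cells and at 3.47, 3.32 and 3.52 in young cells at 20%. The groups at 3% overlapped, and those at 20% lay far apart. Young cells at 3% were 16.6-fold lower than young cells at 20% (-4.05 ± 0.16), and old cells at 3% were 2.85-fold lower than senescent cells (-1.51 ± 0.16).

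TSLP, the stromal cytokine, stood at -0.65, -0.56 and -1.19 in old cells at 3% oxygen, at -0.96, -0.99 and -0.91 in young cells at 3%, at 0.73, 0.98 and 0.56 in senescent cells and at 2.11, 1.99 and 2.16 in young cells at 20%. Here, too, the groups at 3% overlapped. Its oxygen difference was -3.04 ± 0.15 in young cells (8.22-fold lower at 3%, rank 10 from the lowest) and -1.56 ± 0.15 in late cells (2.94-fold lower in old cells at 3% than in senescent cells).

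TNFRSF11B, the decoy receptor, stood at -0.59, -0.76 and -1.07 in old cells at 3% oxygen, at -1.40, -1.23 and -1.0 in young cells at 3%, at 0.59, 0.87 and 0.75 in senescent cells and at 1.62, 1.66 and 1.67 in young cells at 20%. The groups at 3% overlapped by a single array of each. It was 7.25-fold lower in young cells at 3% than in young cells at 20% (-2.86 ± 0.14, rank 14), and 2.91-fold lower in old cells at 3% than in senescent cells (-1.54 ± 0.14).

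Set side by side, the young arrays at 3% lay below the young arrays at 20% without overlap for 6 of the 6 genes, where 17.2% of all genes did so, and old cells at 3% lay below senescent cells without overlap for 5 of 6, where 11.5% of all genes did so. These contrasts chose the genes, and nothing is read from the counts. A log2 difference of -1 or lower was found for 1.12% of all genes in young cells and for 0.764% in late cells.

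Change with passage was then compared at each oxygen level. Group means were fitted with limma over all genes, and p-values were adjusted by Benjamini-Hochberg and called under 0.05. All 4 groups also entered the oxygen differences that chose the genes, so neither passage comparison is independent of that choice.

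At 20% oxygen senescent cells had less of all 6 genes than young cells (6 of 6 called), where 7.84% of all genes were called lower and 4.67% higher. The genes were chosen for values at 3% below those of the same young arrays at 20%, which favours a fall here. The count is therefore not read against the shares of all genes, and the p-values are no independent support. CYTL1 changed most (-2.69 ± 0.16 on the log2 scale, 6.46-fold lower, adjusted p = 5.12e-07), and PTX3 was next (-2.11 ± 0.12, 4.32-fold lower, adjusted p = 3.52e-07). The other two secreted genes fell less: TSLP was 2.51-fold lower (-1.33 ± 0.15, adjusted p = 9.65e-05) and TNFRSF11B 1.88-fold lower (-0.91 ± 0.14, adjusted p = 6.51e-04). VCAM1 was 2.43-fold lower (-1.28 ± 0.13, adjusted p = 3.89e-05) and ICAM1 1.79-fold lower (-0.84 ± 0.17, adjusted p = 0.0049). In all 6 genes the 3 senescent arrays lay below the 3 young arrays, a separation in this direction that 15.2% of all genes showed.

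Both the size and some of these calls depended on the scaling. After quantile normalization of the deposited values the changes were -0.45 for VCAM1 (adjusted p = 0.008), -1.24 for PTX3 (adjusted p = 9.68e-04) and -1.77 for CYTL1 (adjusted p = 2.53e-04), while TSLP (-0.59, adjusted p = 0.0725) and TNFRSF11B (-0.43, adjusted p = 0.0502) were no longer called. For ICAM1, 202638_s_at fell by 1.60 (SE 0.19, adjusted p = 1.83e-04 over all probe sets), and the changes on 202637_s_at (-0.81 ± 0.27, adjusted p = 0.102) and 215485_s_at (-0.12 ± 0.24, adjusted p = 0.912) were not called.

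At 3% oxygen VCAM1 and PTX3 fell between young and old cells and the other genes were not called, where 0.759% of all genes were called lower and 0.981% higher. VCAM1 fell by 1.96 (SE 0.13, 3.89-fold lower in old cells, adjusted p = 6.50e-06), the fifth lowest change of all genes. PTX3 fell by 1.10 (SE 0.12, 2.14-fold lower, adjusted p = 4.09e-04). For both, the 3 old arrays lay below the 3 young arrays, as for 6.23% of all genes, and after quantile normalization both were still called (-1.35, adjusted p = 1.12e-05, and -1.0, adjusted p = 0.0187).

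The changes of the remaining genes at 3% oxygen were small. CYTL1 differed by -0.15 (95% interval -0.51 to 0.21, adjusted p = 0.651), ICAM1 by -0.17 (-0.54 to 0.19, adjusted p = 0.606) and TSLP by 0.15 (-0.18 to 0.49, adjusted p = 0.618). TNFRSF11B gave 0.40 (0.11 to 0.70, adjusted p = 0.209), positive on both probe sets (0.43 ± 0.12 and 0.38 ± 0.22), and was called after quantile normalization (0.65, adjusted p = 0.0216).

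**Figure D3:**
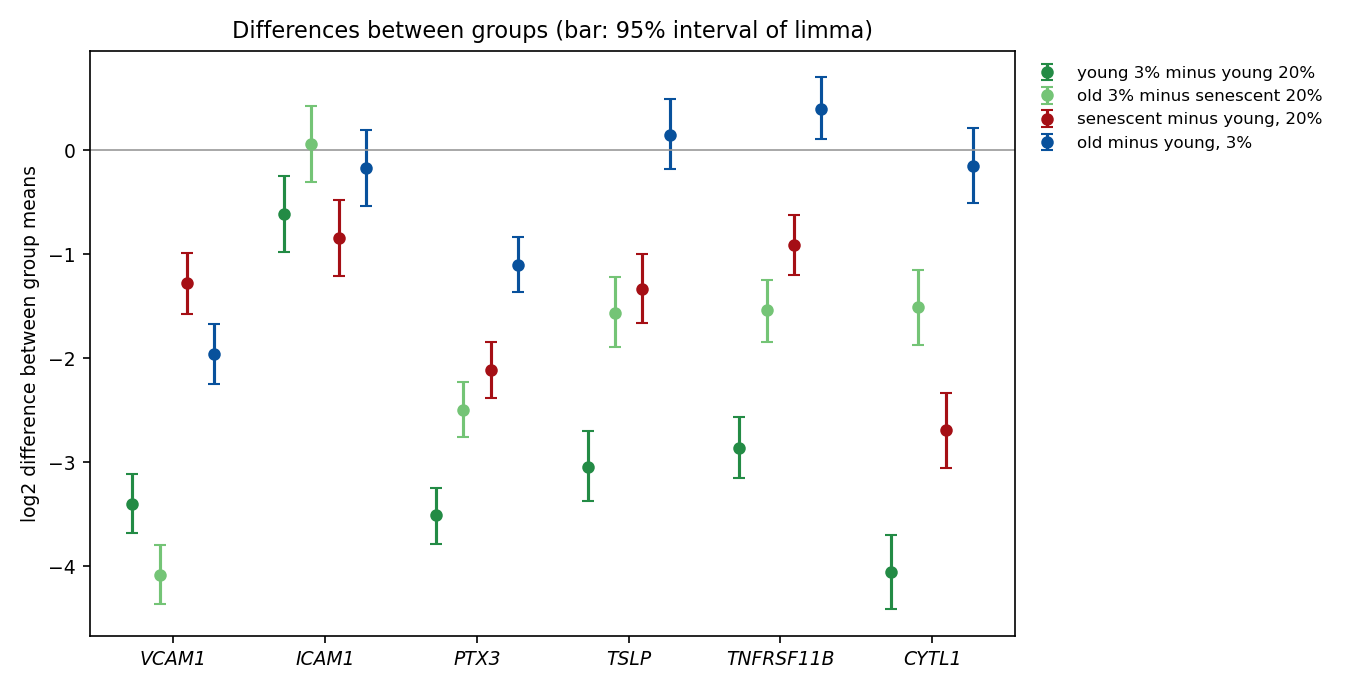
Log2 differences between group means for the 6 genes in 4 comparisons, with bars for the 95% interval of the limma fit. The oxygen differences of 5 genes lie between -4.08 and -1.51, all genes are below 0 for senescent minus young cells, and VCAM1 (-1.96) and PTX3 (-1.10) alone have intervals wholly below 0 for old minus young cells at 3%.

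The passage change at 20% oxygen minus that at 3% equals the oxygen difference in late cells turned against that in young cells, the values that chose the genes, so it is given for them as a description with no test. CYTL1 had -2.54 ± 0.23, TSLP -1.48 ± 0.22, TNFRSF11B -1.32 ± 0.19, PTX3 -1.02 ± 0.17 and ICAM1 -0.67 ± 0.24, where a value below 0 means a greater fall at 20%. VCAM1 had the opposite sign, 0.68 ± 0.19. After quantile normalization these were -1.64 for CYTL1, -0.82 for TSLP, -0.24 for PTX3 and 0.89 for VCAM1. Of all genes, limma called 4.37% below 0 and 2.06% above 0, and nothing is read from these shares for the 6 genes.

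Genes outside the 6 were counted from lists drawn up by function. Of 62 other NF-κB targets 56 were measured, and in young cells at 3% against 20% oxygen 12 were called lower and 3 higher, or 21.4% and 5.36% of the list, where 6.84% and 4.96% of all genes were called. The list median was -0.21, against -0.03 over all genes. Those that moved most were the monocyte chemokine CCL2 (6.76-fold lower, adjusted p = 5.67e-06), the cytokine LIF (5.09-fold lower, adjusted p = 2.75e-08), the plasminogen activator PLAU (3.5-fold lower, adjusted p = 3.82e-06) and, in the other direction, the prostaglandin synthase PTGS2 (3.95-fold higher, adjusted p = 1.76e-05).

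Between old cells at 3% and senescent cells the same list divided evenly, with 9 called lower and 8 higher (16.1% and 14.3%), where 4.41% and 6.59% of all genes were. CCL2 was again lower (8.64-fold, adjusted p = 1.66e-06). PTGS2 was 16.1-fold higher (adjusted p = 3.65e-08), the cytokine IL1B 7.95-fold higher (adjusted p = 2.01e-07) and the neutrophil chemokine CXCL8 3.77-fold higher in old cells at 3% (adjusted p = 1.39e-07). In young cells at 3% IL1B was also higher (3.19-fold, adjusted p = 3.95e-05), but CXCL8 was 2.32-fold lower (adjusted p = 8.88e-06). CCL2 alone of these followed the group order of VCAM1: its means were -2.49 ± 0.61 in old cells at 3%, -0.74 ± 0.30 in young cells at 3%, 0.62 ± 0.08 in senescent cells and 2.02 ± 0.06 in young cells at 20%. LIF stood apart in young cells at 20% oxygen (2.38 ± 0.06), as CYTL1 did, with 0.02 ± 0.06 in senescent cells.

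**Figure D4:**
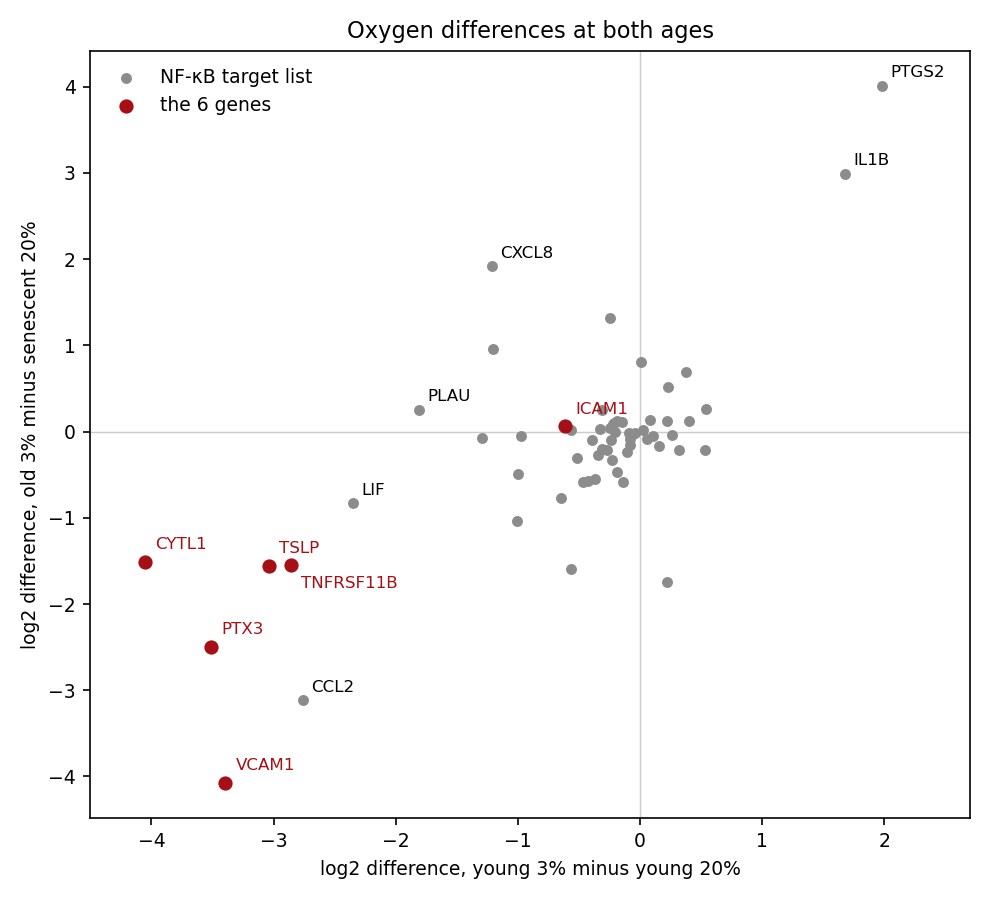
Log2 difference of old cells at 3% minus senescent cells at 20% oxygen against that of young cells at 3% minus young cells at 20%, for the 6 genes and 56 other NF-κB targets, 1 point per gene. VCAM1, PTX3, TSLP, TNFRSF11B and CYTL1 lie at the lower left together with CCL2 (-2.76 in young and -3.11 in late cells), and PTGS2 (1.98 and 4.01) lies at the upper right.

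The ligands, receptors, binding partners and relatives of the secreted genes were measured for 42 of 45. In young cells 8 were lower at 3% than at 20% oxygen and 1 higher (19.0% and 2.38% of the list, with a median of -0.01). Of all genes 6.84% and 4.96% were called. The lower count was 5 to 7 when single arrays were left out. TNFRSF21, a death-domain receptor of the superfamily of TNFRSF11B, was 8.69-fold lower (-3.12 ± 0.15, adjusted p = 4.88e-08). BMP2, a bone morphogenetic protein, was 2.82-fold lower (adjusted p = 9.00e-06), IL33, a type 2 alarmin like TSLP, 2.60-fold lower (adjusted p = 0.0157) and TNFAIP6, a hyaluronan-binding partner of PTX3, 2.31-fold lower (adjusted p = 7.84e-05). IL33 rested on single arrays, since young cells at 20% stood at 1.82, 2.06 and 0.47, and its adjusted p was 0.0765, 0.074 and 0.0501 without young replicate 1 at 20%, young replicate 2 at 20% and young replicate 3 at 3%.

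In late cells 3 of these 42 were lower in old cells at 3% than in senescent cells and 4 higher (7.14% and 9.52%). Of all genes 4.41% and 6.59% were called. IL7R, the receptor chain that TSLP shares with interleukin-7, was 2.05-fold lower (adjusted p = 0.00471), though not when its most variable probe set stood for the gene (-0.86, adjusted p = 0.116). The syndecan SDC4 was 2.50-fold lower (adjusted p = 1.90e-05). TNFAIP6 was 1.95-fold higher (adjusted p = 4.99e-04) and NPTX1, a neuronal pentraxin related to PTX3, 1.94-fold higher (adjusted p = 8.60e-05). BMP2, lower in young cells at 3%, was 1.62-fold higher here (adjusted p = 0.00414). In young cells at 3% IL7R was 2.01-fold lower (adjusted p = 0.00538) and SDC4 1.66-fold lower (adjusted p = 0.0023). NPTX1 was 1.38-fold higher there (adjusted p = 0.0167).

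All genes were called lower and higher at 6.84% and 4.96% in young cells, and at 4.41% and 6.59% in late cells. Other leukocyte adhesion molecules and integrins, 34 of 36 measured, had called genes at about these shares. In young cells 2 were lower at 3% and 2 higher (5.88% each): the junctional molecule JAM2 was 2.36-fold lower (adjusted p = 1.95e-05), CADM1 1.39-fold lower (adjusted p = 0.00413), PODXL 3.28-fold higher (adjusted p = 1.02e-04) and CD99 1.61-fold higher (adjusted p = 8.97e-05). In late cells 1 was lower and 2 higher, with the largest change in MCAM (1.52-fold higher, adjusted p = 0.00558). CADM1 (-0.23, adjusted p = 0.476) and MCAM (0.38, adjusted p = 0.451) were not called when the most variable probe set stood for the gene.

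Components of TNF and interleukin-1 signalling, 45 of 48 measured, had 4 called lower and 1 higher in young cells at 3% (8.89% and 2.22%). Of all genes 6.84% and 4.96% were. In late cells 2 components were called in each direction (4.44% each), where 4.41% of all genes were lower and 6.59% higher. The TNF receptor TNFRSF1B was 2.12-fold lower in young cells at 3% than at 20% (adjusted p = 0.00128) and 1.69-fold lower in old cells at 3% than in senescent cells (adjusted p = 0.0145). The second of these calls ended without senescent replicate 2 (adjusted p = 0.0573), old replicate 2 (0.051) or old replicate 3 (0.0564), and in a fit of the compared groups alone (0.0542). The interleukin-1 receptor IL1R1 was 1.86-fold lower in young cells at 3% (adjusted p = 2.45e-04) but was not called in late cells (0.33, adjusted p = 0.11). In the other direction, BIRC2 was 1.75-fold higher in old cells at 3% than in senescent cells (adjusted p = 3.74e-04). HDAC1 was 1.29-fold higher there (adjusted p = 0.043), and HDAC3 1.47-fold higher in young cells at 3% (adjusted p = 0.0181). The calls of HDAC1 and HDAC3 ended without some single arrays.

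The mean levels of endothelial and leukocyte markers overlapped between the oxygen levels, while single markers did not all do so. The mean of 20 endothelial markers ran from 0.03 to 0.12 in old cells at 3%, -0.01 to 0.04 in young cells at 3%, -0.03 to 0.12 in senescent cells and -0.03 to 0.10 in young cells at 20%, and the mean of 18 leukocyte markers from -0.02 to 0.08, -0.02 to 0.02, -0.02 to 0.11 and -0.03 to 0.01 in the same groups. No leukocyte marker was called by limma in either oxygen comparison, and 0 in young cells and 0 in late cells had an unadjusted p under 0.05. Of the endothelial markers FLT1, a VEGF receptor, was lower at 3% in both comparisons (-1.32 in young and -1.13 in late cells), with no overlap between its arrays at 3% and at 20%, and CLEC14A was higher in old cells at 3% (1.79). Of 19 epithelial markers, the keratin KRT19 was lower in young cells at 3% (-0.91), and none was called by limma in late cells, where 2 had an unadjusted p under 0.05. The mean of 20 fibroblast markers ran from -0.12 to 0.02 in old cells at 3%, -0.08 to -0.05 in young cells at 3%, -0.05 to -0.02 in senescent cells and 0.14 to 0.21 in young cells at 20%, so it was highest where the 6 genes were highest. In young cells 6 of the 20 fibroblast markers were called lower at 3% and 2 higher (30% and 10% of the list), where 6.84% and 4.96% of all genes were. The largest changes were in the matrix genes LUM (-1.5), DCN (-1.39) and POSTN (-1.12), all lower, and in S100A4 (0.76), which was higher. In late cells 4 were lower and 4 higher (20% each), where 4.41% and 6.59% of all genes were. Here POSTN (-1.12), THY1 (-1.0) and FN1 (-0.83) were lower and TCF21 (0.86) was higher. The part of these markers in the differences of the 6 genes was not tested.

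The genes most alike were taken as the 3 with the highest Pearson r over the 12 arrays, among 9888 genes with an SD at or above the median. These r describe 12 arrays in 4 groups that share their group differences, so high values are common among genes that follow the same group order. VCAM1 was most like JUN (r = 0.99), CCL2 (0.98) and DDIT4L (0.98), and PTX3 most like FLT1 (0.99), MAN1C1 (0.98) and QSOX1 (0.98). TSLP and TNFRSF11B were among the closest 3 of each other (r = 0.99) and shared IGFBP2, a binding protein of insulin-like growth factors, with HMGCS1 closest to TSLP (0.99) and the phosphatase DUSP6 closest to TNFRSF11B (0.99). CYTL1 was most like HINT3 (0.98), the growth factor HBEGF (0.98) and OLFML2A (0.98), which like it were highest in young cells at 20%, OLFML2A at 2.46. ICAM1 was most like NOP2 (0.97), EME2 (0.96) and MYL9 (0.95), each of which stood highest in young cells at 20% and below 0 in the other groups.

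**Figure D5:**
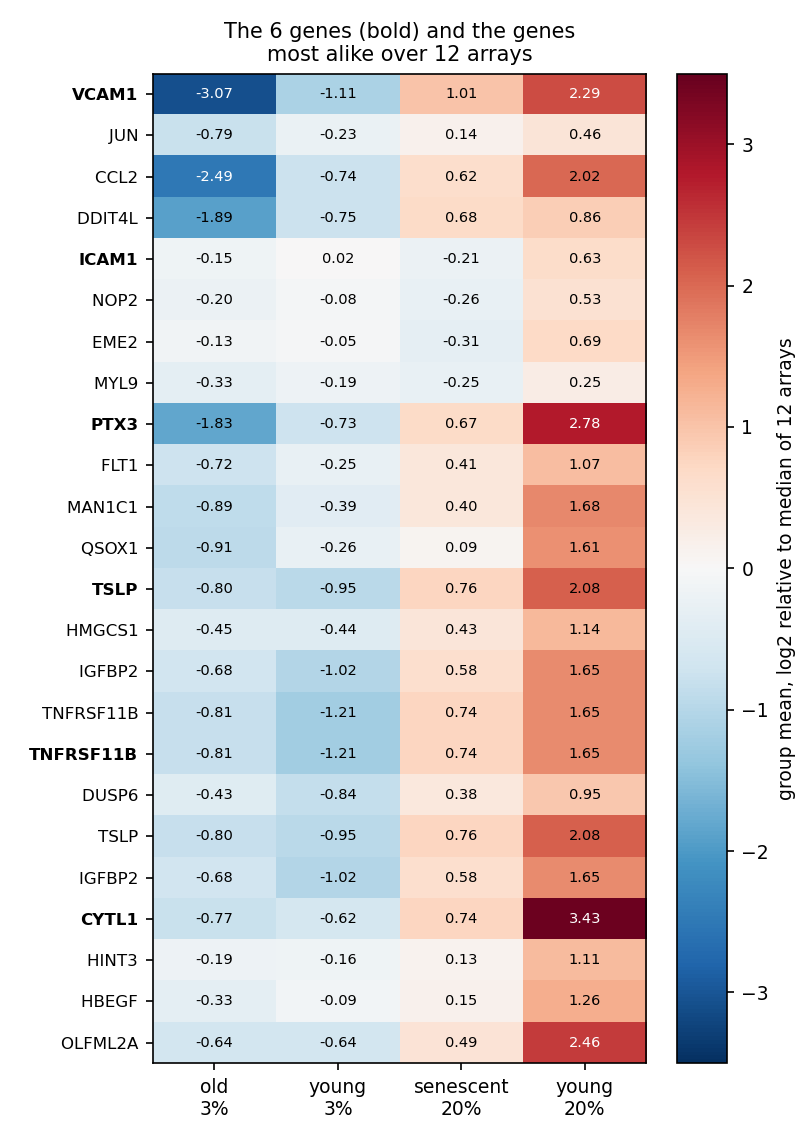
Group means, as log2 signal relative to the median of the 12 arrays, of the 6 genes (bold) and of the 3 genes most alike to each over the arrays, with red above and blue below that median. The rows under VCAM1 and PTX3 run down from young cells at 20% to old cells at 3%, and TSLP and TNFRSF11B appear in each other's rows.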

How the data were processed

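RNA of 12 arrays in 4 groups of 3, assigned by sample title, was analysed. Per the submitters' processing notes the authors used RMA; its version and later steps are not given in the sources used here. The deposited numbers were read as log2 signals, and every probe set has its median at 0 (largest absolute median 5e-07). Of 54675 probe sets, 41091 name 1 gene, and their mean per gene, under the symbol matched by Entrez identifier, gave 19775 genes. A filter on dim genes was not possible. One model of the 4 group means was fitted to every gene (limma 3.58.1, R 4.3.3, moderated by eBayes); tests were two-sided, with Benjamini-Hochberg adjustment across genes per contrast and calls under 0.05. The fit was tested on simulated data with 19775 genes, for young cells at 3% against 20% oxygen. It recovered 33.8%, 86.2% and 100% of genes changed by 0.5, 1 and 2 on the log2 scale. The simulated noise was normal and independent between genes, and far fewer genes were changed than limma called in the data. These percentages therefore do not give the power of the real comparison. The 6 genes, the lists and the tests were chosen with earlier results of these data known. The test of the difference between the passage changes was run, but for the 6 genes its p-values are not given, since it is built from the oxygen differences that chose them. Named list genes are at most the 4 called genes of largest change per list and comparison, and the genes most alike are the 3 of highest r. Deviations of same-numbered old and senescent arrays from their group means correlated at 0.129, 0.519 and 0.669. No other groups compared had positive correlations throughout. With 3 arrays per group these values are not independent, and the titles state no pairing, so a pairing is not established. Start-site windows are those of RefSeq. Alternatives tried are given in the closing section.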

Additional observations from a re-analysis of the deposited data

Results flagged for a closer look

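The change with passage at 20% oxygen (senescent minus young) was set against that at 3% (old minus young), as the 20% change minus the 3% change. For the 6 genes this is a description with no test. CYTL1 had -2.54 (-2.69 at 20% and -0.15 at 3%), TSLP -1.48 (-1.33 and 0.15), TNFRSF11B -1.32 (-0.91 and 0.40) and PTX3 -1.02 (-2.11 and -1.10). ICAM1 had -0.67 (-0.84 and -0.17) and VCAM1, with the opposite sign, 0.68 (-1.28 and -1.96). Several listed genes outside the 6 were called by limma's test of this difference. Only genes picked by their oxygen changes are named here, so the called genes are not all given. Of 56 NF-κB targets 11 were called below 0 and 4 above 0 (19.6% and 7.14%). Of all genes 4.37% and 2.06% were. The picked NF-κB targets, all below 0, were CXCL8 (-3.13, adjusted p = 3.05e-07), TNFAIP6 (-2.17), PLAU (-2.06), PTGS2 (-2.03), LIF (-1.51), IL1B (-1.32) and BIRC2 (-0.80). Picked adhesion molecules were MCAM (-0.92), JAM2 (-0.90), CD99 (0.81) and PODXL (1.07). Of 42 partners 5 were called below 0 and 1 above 0 (11.9% and 2.38%). Picked partners and signalling components were TNFRSF21 (-2.84, adjusted p = 6.00e-06), BMP2 (-2.19), IL33 (-1.76), IL1R1 (-1.23) and HDAC3 (0.76). The picked endothelial marker was CLEC14A (-1.21). This quantity is the oxygen difference in late cells turned against that in young cells. Those differences chose the 6 genes, and the listed genes were taken by their calls in the same comparisons, so the calls are no independent support.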

How the results depend on the processing

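Each alternative changed 1 choice, except the replicate block in the old and senescent arrays alone, which also left out the young arrays. After quantile normalization the oxygen differences in young cells were -3.06 for VCAM1, -2.82 for PTX3, -2.61 for TSLP and -3.38 for CYTL1. Under it TSLP (-0.59) and TNFRSF11B (-0.43) were no longer called for senescent against young cells, and TNFRSF11B was called in old against young cells at 3% (0.65). The cause was not tested. The passage change at 20% minus that at 3%, for the 6 genes a description, was then -0.24 for PTX3, -0.82 for TSLP and 0.89 for VCAM1. For VCAM1 it was 0.69 with arrays centred on their median, 0.76 with array quality weights and 0.59 to 0.81 without single arrays. With its most variable probe set ICAM1 gave 0.39 for old cells at 3% against senescent cells and -1.27 for the difference of the passage changes. Every other value of the 6 genes kept its side of the threshold or moved by less than 1 SD. Genes called with array quality weights were 4137 in place of 2176 (old at 3% against senescent), 6203 in place of 2474 (senescent against young) and 2684 in place of 1273 (difference of the passage changes). For old against young cells at 3% they were 124 in place of 344 in a fit of the compared groups alone, and 187 to 423 without single arrays.

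List counts in young cells moved as follows. NF-κB targets higher were 5 with the most variable probe set, 5 after quantile normalization and 6 with array weights, in place of 3. Adhesion genes lower were 4 with array weights in place of 2. Partners higher were 2 after quantile normalization, 3 with weights and 0 to 2 without single arrays, in place of 1, and partners lower were 5 with the most variable probe set and 5 to 7 without single arrays, in place of 8. Signalling components higher were 2 with the most variable probe set and 0 to 1 without single arrays, in place of 1, and lower were 7 with weights and 2 to 4 without single arrays, in place of 4. In late cells NF-κB targets lower were 14 with weights in place of 9. Adhesion genes higher were 0 with the most variable probe set, 5 with weights and 1 to 2 without single arrays, in place of 2, and lower were 0 in the groups alone, 2 with a replicate block in the old and senescent arrays alone and 0 to 1 without single arrays, in place of 1. Partners lower were 5 after quantile normalization and 5 with weights, in place of 3. Signalling components higher were 1 in the groups alone, 7 with weights, 1 with a replicate block, 1 without flat genes and 1 to 3 without single arrays, in place of 2, and lower were 0 in the groups alone, 1 with a replicate block, 1 without flat genes and 0 to 2 without single arrays, in place of 2.

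The replicate block over all arrays changed no call of the 6 genes: CYTL1 kept -2.69 (adjusted p = 9.39e-06) and VCAM1 -1.96 at 3% (adjusted p = 9.01e-05). The block in the old and senescent arrays alone was chosen after seeing the data. Robust variances changed no count or call named here by over 1.5 times. Because values are centred, signal over background is unknown, and a flat probe set such as 215485_s_at cannot be told apart from one near background.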
